A study of Mus musculus with 11 samples.

Results

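The colony-stimulating factor (CSF) genes were followed through 2 RNA-Seq experiments on GL261 gliomas, a mouse glioma line grown as an allograft in the brain of C57BL/6 mice. The 9 genes were matched by symbol to the Ensembl identifiers of the count tables, in which 50686 genes are listed: the ligands Csf1, Il34, Csf2 and Csf3, and the receptor genes Csf1r, Csf2ra, Csf2rb, Csf2rb2 and Csf3r. Bulk tumours came from 3 Cx3cr1-Rheb1 Δ/Δ mice (labelled KO, replicates 26, 36 and 37) and 3 Rheb1 fl/fl mice (labelled WT, replicates 35, 38 and 110). TAM-MG, the microglia among the tumour-associated macrophages, were sorted as single live CD11b+ CD45low cells from tumours of 3 Δ/Δ mice (replicates 54, 63 and 65) and 2 fl/fl mice (replicates 74 and 78). In Δ/Δ mice a tamoxifen-inducible Cre, knocked in at the Cx3cr1 locus, removes exon 3 of Rheb1, the small GTPase that activates mTORC1, from cells with an active Cx3cr1 promoter. This includes microglia and part of the macrophages derived from the bone marrow, and the GL261 cells themselves carry neither Cre nor floxed alleles. The fl/fl controls lack Cre and received tamoxifen too, so that both groups share the floxed alleles and the drug, and differ in the Cre knocked in at Cx3cr1. Tamoxifen was given 3 weeks before 20000 GL261 cells were injected at 6 weeks of age, and tissue was collected 3 weeks after tumour initiation.

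CSF1 and IL-34 are the ligands of CSF1R, a receptor tyrosine kinase on which microglia and most tissue macrophages depend for survival. IL-34 is made mainly by neurons in the brain, and CSF1 by many cell types including glia and tumour cells. GM-CSF, the product of Csf2, signals through an alpha chain (Csf2ra) that binds the ligand and a beta chain (Csf2rb) that recruits JAK2 and STAT5, and G-CSF, the product of Csf3, signals through the homodimeric receptor encoded by Csf3r, best known from neutrophils. Mice have a further beta chain gene, Csf2rb2, whose product serves the IL-3 receptor.

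Libraries held between 14940787 and 21991348 counts for bulk tumours and between 20765767 and 29947977 for TAM-MG. Levels are given as CPM, the counts of a gene scaled to the library total, on the TMM scale of edgeR. Rheb, the targeted gene, measured 125 to 225 CPM in Δ/Δ and 235 to 348 CPM in fl/fl bulk tumours, and 67.8 to 71.2 CPM in Δ/Δ and 86.5 to 164 CPM in fl/fl TAM-MG, without overlap in either. Of all genes tested, 9.23% in bulk tumours and 11.5% in TAM-MG were lower in Δ/Δ libraries without overlap. By the quasi-likelihood test of edgeR, the log2 fold change of Rheb was -0.88 ± 0.32 in bulk tumours (SE; adjusted p = 0.426). In TAM-MG it was -0.85 ± 0.34 (adjusted p = 0.552). The counts cover the whole gene and not the deleted exon alone. In 1 library, fl/fl bulk tumour 35, Xist had 10643 counts while Ddx3y on the Y chromosome had 0, whereas Ddx3y was counted in the other 10 libraries, so sex was not the same in all mice. The sorted cells carried the defining microglial transcripts, as P2ry12 (microglial purinergic receptor) reached 3149 CPM in Δ/Δ and 1454 CPM in fl/fl TAM-MG. Each library comes from 1 mouse, so p-values measure the spread between mice.

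In bulk tumours, the counts of 6 CSF genes were lower in every Δ/Δ than in every fl/fl mouse, whereas those of Il34 overlapped. Of the 9 genes, 7 passed the filter on low counts, all 7 had a negative fold change against 49.8% of the 17028 genes tested (50.2% were positive), and for 6 of 7 the Δ/Δ tumours lay below the fl/fl tumours without overlap, against 9.23% of all genes (7.82% lay above). None was called by the quasi-likelihood test of edgeR at an adjusted p under 0.05 and a 1.5-fold change, and no gene of the genome was (0%). At an unadjusted p under 0.05, 5 of 7 were lower, against 5.19% of all genes, and none was higher, against 3.82%. The likelihood ratio test of edgeR, which assumes less spread, called Csf1, Csf2ra and Csf3r lower (3 of 7, against 1.53% of all genes) and none higher (0.722%), and DESeq2 called 4.

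**Figure D1:**
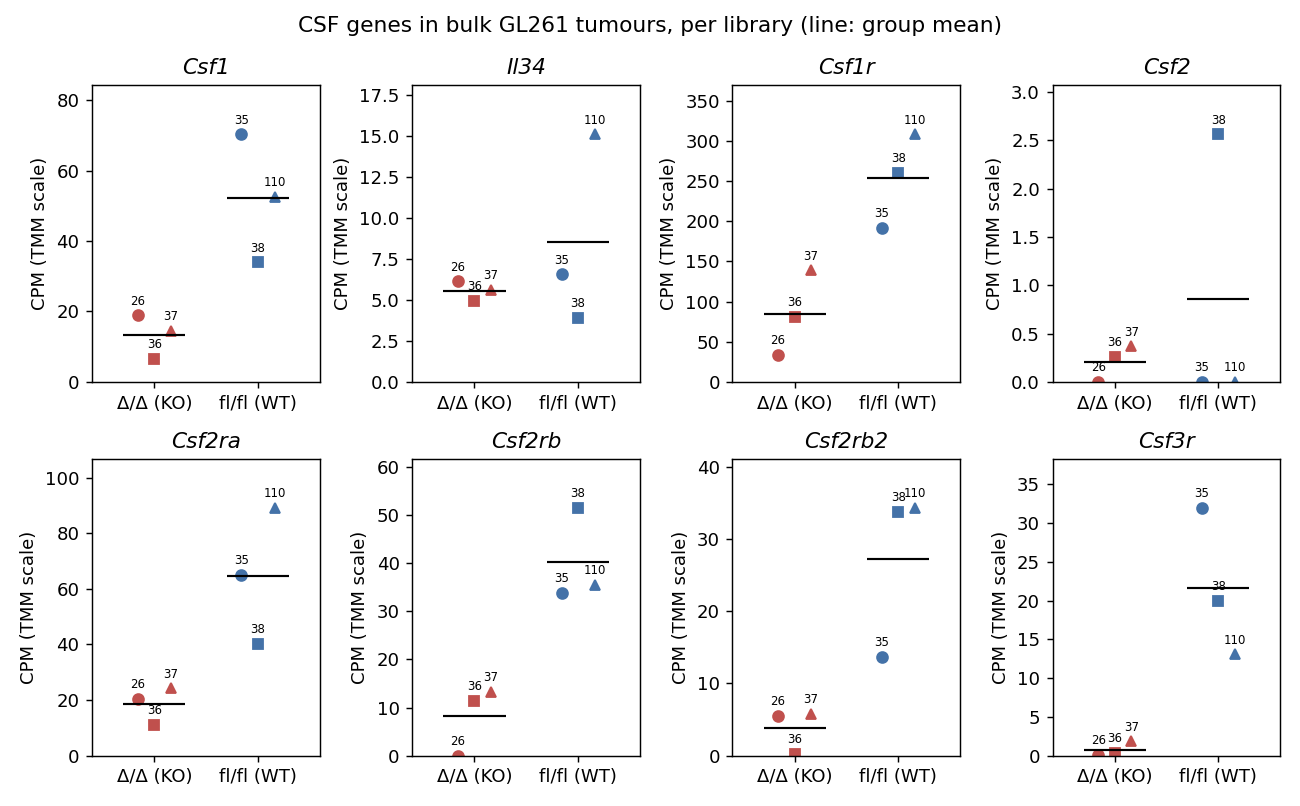
CPM of 8 CSF genes in bulk tumours (y axis, linear from 0) for Δ/Δ (KO, red) and fl/fl (WT, blue) mice; each point is 1 library with its replicate number, and the line is the group mean. Csf3 had 1 count in all and is not drawn. The groups are apart for Csf1, Csf1r, Csf2ra, Csf2rb, Csf2rb2 and Csf3r, and overlap for Il34 and Csf2.

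The CSF1 axis comes first. Csf1 (chr3:107741048-107760469, minus strand, GRCm38) had 268, 101 and 276 counts in Δ/Δ tumours 26, 36 and 37, against 1264, 755 and 841 counts in fl/fl tumours 35, 38 and 110. These were 13.3 ± 6.30 CPM in Δ/Δ and 52.2 ± 18.2 CPM in fl/fl tumours (SD, n = 3 each). Every Δ/Δ tumour lay below every fl/fl tumour, and the log2 fold change was -1.98 ± 0.56 (SE; quasi-likelihood adjusted p = 0.245, likelihood ratio adjusted p = 0.0479).

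Since Csf1 is the ligand that was tested in both materials, its promoter is shown. The 250 bases before its start (chr3:107760470-107760719, minus strand, RefSeq GRCm38.p6) hold an NF-kB decamer, read here from its opposite strand and set in capitals, at position -154 from the start.

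Csf1: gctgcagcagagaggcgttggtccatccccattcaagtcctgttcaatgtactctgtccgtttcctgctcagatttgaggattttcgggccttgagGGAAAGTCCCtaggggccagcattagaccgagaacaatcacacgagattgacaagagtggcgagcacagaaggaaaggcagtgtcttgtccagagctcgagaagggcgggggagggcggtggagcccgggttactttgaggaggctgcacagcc

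That decamer, searched on both strands, stood in 46 of 32536 promoter windows of the same length (0.141%). RefSeq windows were at hand for 5 of the 9 genes, and among Csf1, Csf2, Csf2ra, Csf2rb2 and Csf3r no other window held it. The letters GAGGAAGT, a core of the sites of the myeloid factor PU.1, were in none of the 5 windows and in 2.45% of all. The shorter GAGGAA, which lies within the longer motif, was in the windows of Csf2ra, Csf2rb2 and Csf3r and in 23.4% of all. Such matches describe the sequence and are no evidence of binding.

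Il34 (chr8:110741829-110805924, minus strand) overlapped between genotypes, unlike Csf1. Its levels were 6.13, 4.92 and 5.60 CPM in Δ/Δ tumours, against 6.56, 3.91 and 15.1 CPM in fl/fl tumours. The log2 fold change of -0.62 ± 1.04 (adjusted p = 0.909) was within its error, and without fl/fl tumour 110 it was 0.07. Per 100 CPM of Csf1 there were 32.5, 76.2 and 38.8 CPM of Il34 in Δ/Δ tumours, against 9.34, 11.5 and 28.8 in fl/fl tumours. By these counts the balance of the CSF1R ligands lay further towards Il34 in all 3 Δ/Δ tumours. The shift was 2.97-fold by the means and 4.71-fold without fl/fl tumour 110. The exact permutation p was 0.1, two-sided, the smallest that 3 against 3 can give. It was 0.4 after Benjamini-Hochberg adjustment over 22 such ratios and sums, which were chosen after the levels were seen. By the TPM values that the authors deposited, the ratio overlapped between genotypes. There, fl/fl tumour 110 had 45.1 TPM of Il34 beside 15.3 TPM of Csf1. Against this stood 15.5 TPM beside 5.56 TPM in Δ/Δ tumour 26 and 9.43 TPM beside 3.55 TPM in Δ/Δ tumour 37.

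Csf1r (chr18:61100598-61132149, plus strand) had 33.8, 81.0 and 139 CPM in Δ/Δ tumours 26, 36 and 37, against 192, 260 and 308 CPM in fl/fl tumours 35, 38 and 110. The ranges did not meet, and the log2 fold change was -1.58 ± 0.46 (adjusted p = 0.263, likelihood ratio adjusted p = 0.0520). In a bulk tumour fewer CSF1R-bearing cells and less RNA per cell cannot be told apart.

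The TPM values that the authors deposited give another picture of Csf1r. They were 5.43, 18.3 and 32.5 TPM in Δ/Δ tumours, against 14.9, 31.9 and 19.5 TPM in fl/fl tumours, so that the groups overlapped and Δ/Δ tumour 37 was the highest of all 6. On log2(TPM + 1) the difference was -0.46 (limma adjusted p = 0.850). The quotient of TPM and CPM, which would be alike in all libraries up to a factor per library if both measured the same transcripts, was 0.161 to 0.234 in Δ/Δ and 0.0634 to 0.123 in fl/fl tumours for Csf1r, whereas it overlapped between genotypes for Csf1, Il34, Csf2ra and Csf2rb. It was also apart for Csf3r, at 0.511 to 3.89 in Δ/Δ tumours, where 1 to 35 counts stand behind it, and 0.281 to 0.330 in fl/fl tumours. With CPM from plain library totals, without TMM factors, the quotient of Csf1r was 2.49-fold higher by the means in Δ/Δ than in fl/fl tumours. Of 7607 genes with at least 100 counts in every bulk library, 92 (1.21%) showed a shift at least as large without overlap. The cause of this shift was not tested. The gene Hmgxb3 lies on the opposite strand and shares 15.1% of the exonic bases of Csf1r. Libraries were made without strand, so its reads cannot be assigned there. The level of Hmgxb3 was 0.0705 to 6.65 CPM in Δ/Δ and 0.125 to 4.67 CPM in fl/fl bulk tumours. Its part in the shift was not tested. TPM kept the negative sign of the other 5 CSF genes that have bulk TPM values, with -1.77 for Csf1 and -1.84 for Csf2ra on log2(TPM + 1).

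**Figure D2:**
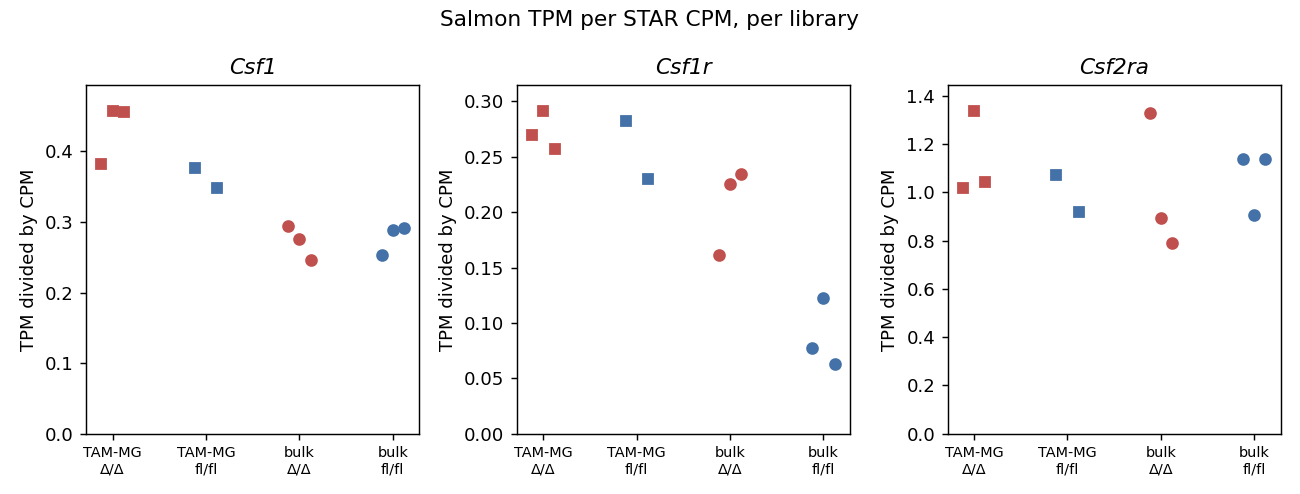
TPM divided by CPM (y axis, linear from 0) of Csf1, Csf1r and Csf2ra for TAM-MG (squares) and bulk tumours (circles), Δ/Δ in red and fl/fl in blue, 1 point per library. For Csf1r the 3 Δ/Δ bulk tumours lie at 0.161 to 0.234 and the 3 fl/fl bulk tumours at 0.0634 to 0.123.

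The counts of Csf2ra and of both beta chain genes were apart between genotypes in bulk tumours. Csf2ra (chr19:61223957-61228429, minus strand) had 20.4, 11.2 and 24.2 CPM in Δ/Δ tumours, against 64.98, 40.2 and 89.0 CPM in fl/fl tumours. The groups were apart, with a log2 fold change of -1.80 ± 0.49 (adjusted p = 0.229, likelihood ratio adjusted p = 0.0381). Csf2rb (chr15:78325752-78353847, plus strand) had 0, 11.4 and 13.3 CPM in Δ/Δ tumours 26, 36 and 37, against 33.9, 51.4 and 35.5 CPM in fl/fl tumours (log2 fold change -2.28 ± 1.19, adjusted p = 0.627). Csf2rb2 (chr15:78282507-78305721, minus strand), its neighbour, had 5.50, 0.192 and 5.76 CPM in Δ/Δ tumours, against 13.7, 33.7 and 34.3 CPM in fl/fl tumours (-2.83 ± 1.07, adjusted p = 0.451). Both were apart between genotypes, yet Δ/Δ tumour 26 had no Csf2rb count beside 78 of Csf2rb2, and Δ/Δ tumour 36 had 179 of Csf2rb beside 3 of Csf2rb2.

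These beta chain genes are near copies, which bears on how reads are shared between them. Over 2628 aligned bases their coding sequences were 95.2% identical. Of 2258 aligned windows of 75 bases, the read length, 413 (18.3%) had no difference, and the median window had 2 differences. The first coding window is such a median window, with the differing bases in capitals, and the window from coding base 316 of Csf2rb (base 319 of Csf2rb2) is the most different of all, with 14.

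Csf2rb, coding bases 1 to 75: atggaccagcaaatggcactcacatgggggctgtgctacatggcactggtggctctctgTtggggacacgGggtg
Csf2rb2, coding bases 1 to 75: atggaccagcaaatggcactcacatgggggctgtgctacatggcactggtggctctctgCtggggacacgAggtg
Csf2rb, coding bases 316 to 390: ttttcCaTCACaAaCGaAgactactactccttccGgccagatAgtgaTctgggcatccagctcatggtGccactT
Csf2rb2, coding bases 319 to 393: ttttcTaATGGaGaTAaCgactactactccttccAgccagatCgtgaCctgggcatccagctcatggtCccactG

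Over whole transcripts, 7.2% of the windows of Csf2rb and 10.6% of those of Csf2rb2 also occurred in the other gene. How many reads were assigned to the wrong copy was not tested, so the sum is given beside the split. Csf2rb and Csf2rb2 together had 5.50, 11.6 and 19.1 CPM in Δ/Δ tumours, against 47.5, 85.1 and 69.8 CPM in fl/fl tumours. The summed level was 5.59-fold lower in Δ/Δ tumours, with no overlap (exact permutation p = 0.1, two-sided; adjusted p = 0.4).

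The ligand Csf2 (chr11:54247271-54249667, minus strand) was scarce and was not tested. It had 0, 4 and 7 counts in Δ/Δ tumours, against 0, 57 and 0 counts in fl/fl tumours, where fl/fl tumour 38 held all of them. Csf3 (chr11:98701263-98703629, plus strand) had a single count in the 6 bulk tumours, in Δ/Δ tumour 26. For a library with no count, 3 counts as the upper limit allow up to 0.136 to 0.201 CPM in bulk tumours, a bound that covers counting error only.

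Csf3r (chr4:126024550-126044440, plus strand) showed the largest difference of the 7 genes. It had 1, 6 and 35 counts in Δ/Δ tumours 26, 36 and 37, against 574, 445 and 209 counts in fl/fl tumours 35, 38 and 110. These were 0.762 ± 0.94 CPM in Δ/Δ and 21.6 ± 9.54 CPM in fl/fl tumours (SD, n = 3 each). The log2 fold change was -4.80 ± 1.25 (adjusted p = 0.206, likelihood ratio adjusted p = 0.00854), and it ran between -6.52 and -4.27 when each tumour was left out in turn. By the deposited TPM values, 0.673 ± 0.351 in Δ/Δ and 6.66 ± 3.49 in fl/fl tumours, the groups were also apart, but the difference was smaller, at -2.12 on log2(TPM + 1) (limma adjusted p = 0.243) and -3.13 on log2(TPM + 0.1). At 1 to 35 counts the Δ/Δ levels are close to the limit of the depth.

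Myeloid markers were compared beside these genes. Of the 16 microglia and macrophage markers, all 16 had a negative fold change in Δ/Δ tumours (median log2 fold change -1.57, against 0.00341 over all genes; 11 with an unadjusted p under 0.05), including Itgam (CD11b) at -3.35 and Aif1 (IBA1) at -2.29. Their summed level was 866 to 1800 CPM in Δ/Δ and 3044 to 5147 CPM in fl/fl tumours, with 1 marker at 0 in Δ/Δ tumour 36 and none at 0 elsewhere. Of 12 markers of resting microglia 10 were negative (median -1.83; 5 with an unadjusted p under 0.05), but their summed level overlapped, with 936 to 1505 CPM in Δ/Δ and 1160 to 1558 CPM in fl/fl tumours. Of 8 monocyte markers 7 were negative, and their sum was 120 to 217 CPM in Δ/Δ and 396 to 1044 CPM in fl/fl tumours. Cx3cr1 itself was at 0.493, 0.384 and 26.9 CPM in Δ/Δ tumours 26, 36 and 37, against 61.1, 87.3 and 139 CPM in fl/fl tumours. The 10 neutrophil markers summed to 1.15 to 12.4 CPM in Δ/Δ and 7.46 to 20.01 CPM in fl/fl tumours, and 4 to 7 of them were at 0 in each library. T and NK cell markers summed to 4.51 to 32.5 CPM in Δ/Δ and 54.2 to 109 CPM in fl/fl tumours. The part of these cell types in the CSF levels was not tested. The ratios that follow set the CSF genes mainly against the microglia and macrophage markers.

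Per 1000 CPM of the summed microglia and macrophage markers, the picture of the CSF genes divided. Csf1r had 39.0, 64.7 and 77.1 CPM per 1000 in Δ/Δ tumours, against 62.0, 85.4 and 59.8 in fl/fl tumours, and the groups overlapped, as they did for Csf1, Csf2ra, Csf2rb and Csf2rb2 (exact permutation p between 0.2 and 0.8). Csf3r stayed apart, with 0.0813, 0.306 and 1.02 CPM per 1000 in Δ/Δ tumours, against 10.3, 6.57 and 2.53 in fl/fl tumours, a 13.8-fold lower mean, or 33.4-fold without Δ/Δ tumour 37 (exact permutation p = 0.1; adjusted p = 0.4). Against Csf1r, too, Csf3r was at 0.209, 0.474 and 1.32 CPM per 100 in Δ/Δ tumours, against 16.7, 7.69 and 4.24 in fl/fl tumours. Il34 was on the other side, with 7.08, 3.93 and 3.11 CPM per 1000 in Δ/Δ tumours and 2.12, 1.28 and 2.93 in fl/fl tumours, also apart (exact permutation p = 0.1; adjusted p = 0.4). By CPM alone Il34 overlapped between genotypes, and only the marker sum it was divided by was apart. The outcome depends on the divisor: by the summed markers of resting microglia, Csf1r, Csf1 and Csf2ra stay apart between genotypes. Neuron markers summed to 3623, 3470 and 1260 CPM in Δ/Δ tumours 26, 36 and 37. In fl/fl tumours 35, 38 and 110 they summed to 1816, 1921 and 2721 CPM, and the groups overlapped.

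No gene of the pathway lists, which cover receptor signalling, myeloid transcription factors and related growth factors, was called by the quasi-likelihood test. Over all genes 49.8% were negative, and at an unadjusted p under 0.05 5.19% were lower and 3.82% higher. Of 25 genes of CSF1R signalling 21 were negative and 4 positive in Δ/Δ tumours (median log2 fold change -0.84, against 0.00341 over all genes; 5 lower at an unadjusted p under 0.05), with Tyrobp (DAP12, a signalling adaptor of myeloid receptors) at -1.50 ± 0.36, the adaptors Grb2 at 0.24 ± 0.30 and Shc1 at -0.52 ± 0.47, and the exchange factor Sos1 at 0.55 ± 0.43. Of 15 genes of the JAK and STAT5 pathway 11 were negative (median -0.34; 3 lower), with the kinases Jak2 at -0.95 and Jak1 at 0.12, and the transcription factors Stat5a at -0.90 and Stat5b at -1.17. Of 12 tested myeloid transcription factors 9 were negative (median -1.13; 4 lower and 1 higher), with Irf8 at -2.97 ± 0.63, Spi1 (PU.1) at -0.89, Cebpa at -0.93 and Cebpb at 0.94. Among 10 tested genes of related growth factors and receptors, 9 were negative, and Kit (stem cell factor receptor) was at 1.57 beside its ligand Kitl at -1.60, and Flt3 at -2.54 beside its ligand Flt3l at -0.32 (median -0.57; with an unadjusted p under 0.05, 1 was higher and 2 were lower).

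In TAM-MG the CSF genes did not share a direction between genotypes. Of the 9 genes, 6 were tested, and none was called in Δ/Δ against fl/fl TAM-MG by the quasi-likelihood test, as was no other of the 14872 genes (0%). The likelihood ratio test (1.18% of all genes called higher and 0.471% lower) and DESeq2 called none of the 6 either. At an unadjusted p under 0.05 Csf3r alone was higher, against 5.47% of all genes, and none was lower, against 2.3%. Csf1r, Csf3r, Csf2rb and Csf1 had positive and Csf2ra and Csf2rb2 negative fold changes, 4 positive of 6, while 53.5% of all genes were positive and 46.5% negative. The groups were apart for Csf1r and Csf3r, 2 of 6 genes, which were higher in Δ/Δ cells, as 14.6% of all genes were, and no CSF gene was lower without overlap (11.5% of all genes).

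Csf1r, a highly expressed gene of these cells, had 5055, 3801 and 3045 CPM in Δ/Δ TAM-MG 54, 63 and 65, against 2518 and 2159 CPM in fl/fl TAM-MG 74 and 78. All 3 Δ/Δ libraries were above both fl/fl libraries, with a log2 fold change of 0.76 ± 0.32 (adjusted p = 0.552). Deposited TPM values gave the same order, 784 to 1363 TPM in Δ/Δ and 496 to 711 TPM in fl/fl cells.

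Csf3r had 287, 288 and 300.2 CPM in Δ/Δ TAM-MG, against 214 and 142 CPM in fl/fl TAM-MG. The Δ/Δ libraries were close to each other and above both fl/fl libraries (log2 fold change 0.71 ± 0.28, adjusted p = 0.552). The neutrophil markers summed to 25.2 to 69.6 CPM in Δ/Δ and 47.9 to 86.4 CPM in fl/fl TAM-MG, so that their level ran the other way at the means, and 3 to 5 of the 10 were at 0 in each library.

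Neither Csf2ra nor the beta chain genes passed a test in TAM-MG. Csf2ra had 143, 46.0 and 99.5 CPM in Δ/Δ TAM-MG, against 162 and 112 CPM in fl/fl TAM-MG (log2 fold change -0.51 ± 0.50, adjusted p = 0.892). Csf2rb had 214, 187 and 205 CPM in Δ/Δ TAM-MG, against 81.0 and 192 CPM in fl/fl TAM-MG (0.57 ± 0.40, adjusted p = 0.793), and its copy Csf2rb2 had 26.4, 56.4 and 47.7 CPM in Δ/Δ cells, against 46.6 and 73.0 CPM in fl/fl cells (-0.46 ± 0.45, adjusted p = 0.892). All 3 overlapped between genotypes. The copies summed to 240, 243 and 253 CPM in Δ/Δ cells, against 128 and 265 CPM in fl/fl cells, where the fl/fl libraries lay on both sides of the Δ/Δ libraries.

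Csf1, at 79.1, 61.4 and 43.6 CPM in Δ/Δ TAM-MG and 48.5 and 39.5 CPM in fl/fl TAM-MG, overlapped as well (0.48 ± 0.38, adjusted p = 0.836). Il34 was without a count in 4 of 5 TAM-MG libraries, and fl/fl TAM-MG 78 held 8. Csf2 and Csf3 had none in any of the 5, where 3 counts correspond to 0.1002 to 0.144 CPM.

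**Figure D3:**
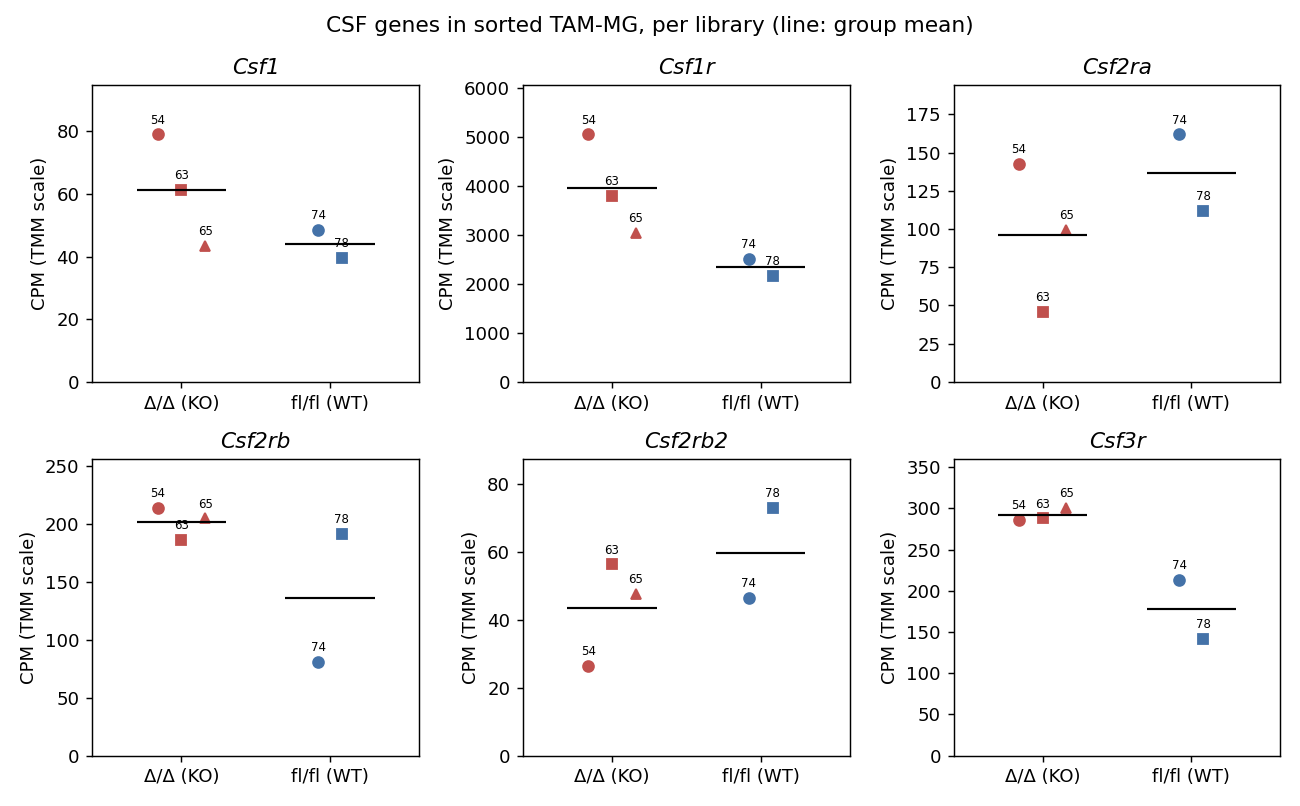
CPM of the 6 CSF genes tested in TAM-MG (y axis, linear from 0) for Δ/Δ (KO, red) and fl/fl (WT, blue) mice; each point is 1 library with its replicate number, and the line is the group mean. Only for Csf1r and Csf3r do all 3 Δ/Δ libraries lie above both fl/fl libraries.

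How the libraries were scaled mattered in TAM-MG more than in bulk tumours, where the median of all genes moved to 0.14. With TMM, 29.6% of the genes at an unadjusted p under 0.05 were lower in Δ/Δ TAM-MG, and with a scaling that gives each library the same mean log CPM, added after the data were seen, 73.6% were. The median of all genes was then at -0.41, Csf1 at -0.04, Csf1r at 0.25 and Csf3r at 0.20. Relative to the median of all genes Csf1r was at 0.68 with TMM and 0.66 with the other scaling, Csf3r at 0.63 and 0.61, and Csf1 at 0.40 and 0.37. A change of scaling shifts all genes nearly alike, so these pairs had to be close and are no check of robustness. Ratios within a library need no scaling, but they depend on the divisor. Per 1000 CPM of the microglia and macrophage markers Csf1r had 88.8, 82.3 and 58.6 CPM in Δ/Δ TAM-MG, against 57.8 and 34.8 in fl/fl TAM-MG, and Csf3r had 5.03, 6.23 and 5.78 in Δ/Δ cells, against 4.91 and 2.28 in fl/fl cells. Both remained apart, with a Csf3r mean 1.58-fold higher in Δ/Δ cells, or 2.49-fold without fl/fl TAM-MG 74 (exact permutation p = 0.2 each, two-sided, the smallest that 3 against 2 can give; adjusted p = 0.4). Csf2rb, whose CPM overlapped, was apart by this ratio. The summed markers of resting microglia were 24949, 36363 and 34705 CPM in Δ/Δ TAM-MG, against 21239 and 26124 CPM in fl/fl TAM-MG. Divided by these instead, Csf1r and Csf3r overlap between genotypes. Per 100 CPM of Csf1r there were 2.82, 1.21 and 3.27 CPM of Csf2ra in Δ/Δ cells, against 6.43 and 5.17 in fl/fl cells, a 2.38-fold lower mean (exact permutation p = 0.2; adjusted p = 0.4).

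Markers of resting microglia were on the same side as Csf1r. All 12 had a positive fold change in Δ/Δ TAM-MG (median log2 fold change 0.47, against 0.0809 over all genes; 2 with an unadjusted p under 0.05), with P2ry12 at 1.12, Tmem119 at 0.82 and Sall1 at 1.59, and they summed to 24949 to 36363 CPM in Δ/Δ and 21239 to 26124 CPM in fl/fl cells. The 16 microglia and macrophage markers had 7 positive and 9 negative fold changes (median -0.0136). The part of the microglial state in the CSF levels was not tested. Of the 12 tested myeloid transcription factors, 11 were positive (median 0.58, none with an unadjusted p under 0.05), with Spi1 at 0.66, Irf8 at 0.42, Cebpa at 0.67 and Cebpb at 1.94. Of the 15 genes of the JAK and STAT5 pathway 13 were positive (median 0.74), with Jak2 at 2.22, Jak1 at 0.07, Stat5a at -0.69 and Stat5b at 1.68, and of 23 genes of CSF1R signalling 14 were (median 0.28; 2 higher at an unadjusted p under 0.05), with Tyrobp at -0.09, Grb2 at 0.29, Sos1 at 4.15 and Shc1 at -0.22. Of 10 related growth factors and receptors 4 were positive (median -0.21), with Kit at 3.60, Kitl at -0.50, Flt3 at -1.09 and Flt3l at -0.45. None of these genes was called.

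The genotype effects in TAM-MG and in bulk tumours were then compared over all 11 libraries as an interaction. The difference, TAM-MG minus bulk, was positive for 6 of 7 CSF genes (57.3% of all genes were positive and 42.7% negative), but none was called (42 of 21342 genes, 0.197%, were called higher and 6, 0.0281%, lower). It was 5.53 ± 1.09 log2 for Csf3r (adjusted p = 0.0871), 2.39 ± 0.66 for Csf1r (adjusted p = 0.225) and 2.49 ± 0.75 for Csf1 (adjusted p = 0.268). These 3 were those with an unadjusted p under 0.05, against 9.3% of all genes, and no CSF gene was lower there (2.93%). The likelihood ratio test called Csf1r and Csf3r (2 of 7, against 3.11% of all genes) and none lower (0.806%), DESeq2 called 3, and without Δ/Δ bulk tumour 37 the quasi-likelihood test called Csf3r (7.30, adjusted p = 0.0139). For Csf1r and Csf3r every Δ/Δ library was below every fl/fl library in bulk tumours and above it in TAM-MG, which held for 1.73% of the 12667 genes tested in both experiments. Csf2ra and Csf2rb2 were negative in both experiments, with differences of 1.33 ± 0.72 (adjusted p = 0.501) and 2.41 ± 1.33 (adjusted p = 0.508). A positive difference was not particular to the CSF genes. All 16 microglia and macrophage markers had one (median 1.42, against 0.298 over all genes; 9 with an unadjusted p under 0.05). So had 11 of 12 markers of resting microglia (median 2.65; 6) and 11 of 12 myeloid transcription factors (median 1.72; 5), with 1 negative in each list. Of the genes of the pathway and marker lists, those called were Sall1, a microglial transcription factor, at 4.18 (adjusted p = 0.0456), the Src-family kinase Fgr at 9.06 (adjusted p = 0.0470) and the astrocyte water channel Aqp4 at 10.9 (adjusted p = 0.0470). In TAM-MG the mean of Aqp4 was 2.89 CPM in Δ/Δ and 0 CPM in fl/fl cells, so the size of its value rests on a group without counts.

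**Figure D4:**
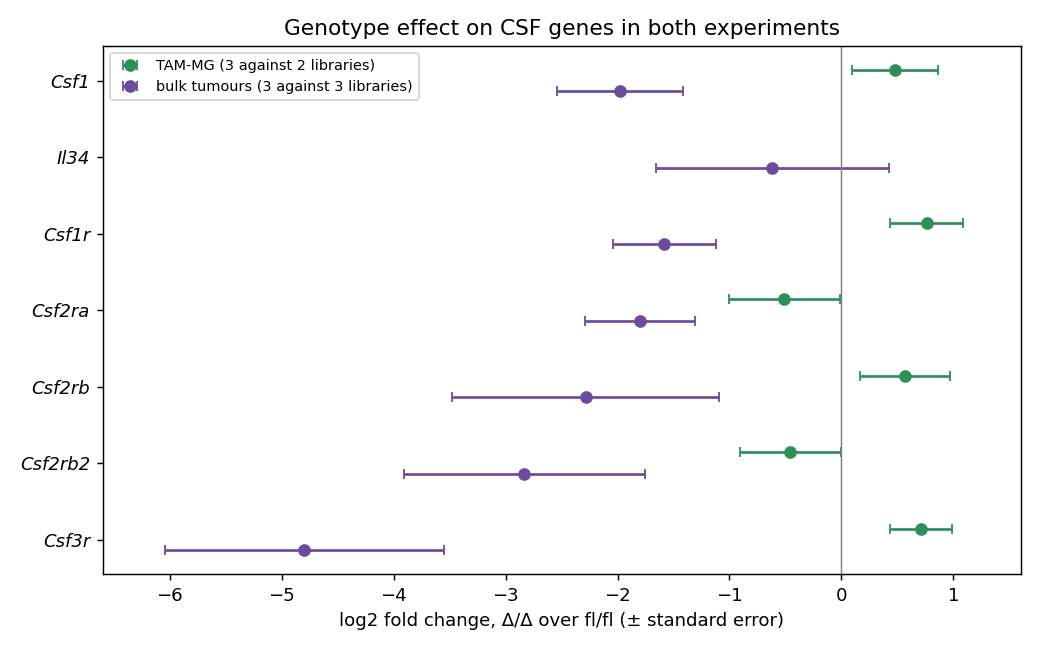
Log2 fold change of Δ/Δ over fl/fl (x axis, bars are ± standard error) for 7 CSF genes in TAM-MG (green) and bulk tumours (purple); Il34 was not tested in TAM-MG. All 7 bulk values are below 0, and 4 of 6 TAM-MG values are above 0, of which Csf1 is at -0.04 when libraries are scaled to the same mean log CPM.

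Lastly, levels in sorted TAM-MG were set against those in bulk tumours over both genotypes. Sorted living cells in TRIzol are here compared with tissue scraped off FFPE slides, and the material and the cell content cannot be told apart. Of 7 tested CSF genes, 6 were called higher in TAM-MG (20.5% of 21342 genes were) and Il34 lower (32.4% were), beside a median of -0.89 over all genes, of which 38.9% were positive and 61.1% negative. Without overlap between the materials, 4 were higher (14.6% of all genes) and 1 was lower (20.2%). The likelihood ratio test called the same numbers, 6 higher (22.2%) and 1 lower (38.3%), and at an unadjusted p under 0.05 they were again 6 (22.5%) and 1 (38.2%). Csf3r (6.35 ± 0.59 log2, adjusted p = 1.39e-05), Csf1r (4.95 ± 0.36, adjusted p = 3.1e-06), Csf2rb (3.76 ± 0.79, adjusted p = 0.00279), Csf2rb2 (2.90 ± 0.67, adjusted p = 0.00457), Csf2ra (2.29 ± 0.36, adjusted p = 0.00048) and Csf1 (1.55 ± 0.37, adjusted p = 0.00519) stood in that order. All 16 microglia and macrophage markers and all 12 markers of resting microglia were called higher as well, and all 7 neuron markers were called lower.

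Genes of these pathway lists were called in both directions between the materials, and over all genes 20.5% were called higher and 32.4% lower. Of 25 genes of CSF1R signalling 12 were called higher in TAM-MG and 7 lower (median 1.31), among them the adaptor Tyrobp at 4.30, the kinases Lyn at 3.88 and Fgr at 6.56, the exchange factor Vav1 at 5.45 and the phosphatases Inpp5d at 4.21 and Ptpn6 at 4.95 on the higher side. On the lower side were Ptprz1, a receptor of IL-34, at -5.31, the syndecan Sdc1 at -6.40, Sos1 at -3.52, Src at -1.62, Ptpn11 at -1.17 and Grb2 at -0.93. The JAK and STAT5 pathway had 4 called higher (among them Osm at 6.85, Socs3 at 2.48 and Mcl1 at 1.96) and 2 lower (Socs2 at -2.43 and Ccnd2 at -0.90) of 15 (median 0.28). Of 12 myeloid transcription factors 10 were called higher (median 3.03), with Irf8 at 4.67, Spi1 at 4.92 and Cebpa at 3.10, and Cebpb was lower at -2.34. Of the 10 related genes Il7r (4.22), Il6ra (1.95), Il6st (1.22) and Lifr (2.75) were called higher and Kit (-4.59) lower.

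For Csf1 the call held within Δ/Δ and not within fl/fl libraries, and the difference between the genotypes, the interaction above, was not called. Within fl/fl libraries the log2 difference was 0.22 (adjusted p = 0.746), with 53.3 CPM in TAM-MG and 43.1 CPM in bulk tumours on the common scale. Within Δ/Δ libraries it was 2.77 (adjusted p = 0.00689), with 77.3 CPM in TAM-MG and 11.1 CPM in bulk tumours. Within fl/fl libraries Csf2rb2 (1.61, adjusted p = 0.0698) and Il34 (-4.86, adjusted p = 0.125) were also not called, and Csf1r (3.67), Csf3r (3.50), Csf2rb (2.25) and Csf2ra (1.54) were.

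Expressed as a share of the TAM-MG level of the same genotype, the bulk level of Csf3r was 0.173% in Δ/Δ and 8.33% in fl/fl mice. That of Csf1r was 1.41% in Δ/Δ and 7.39% in fl/fl mice. The share of Csf1r rests on its bulk counts, whereas its bulk TPM values overlapped between genotypes. The shares were 2.70% in Δ/Δ and 19.97% in fl/fl mice for Csf2rb, 5.81% in Δ/Δ and 30.9% in fl/fl for Csf2rb2, 12.9% in Δ/Δ and 32.3% in fl/fl for Csf2ra, and 14.4% in Δ/Δ and 80.9% in fl/fl for Csf1. The shares describe group means on the common scale and were not tested.

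The other ligands had few or no counts in TAM-MG. Il34 had 8 counts in the 5 TAM-MG libraries together, against 718 counts in the 6 bulk tumours, a 105-fold lower summed level in TAM-MG (log2 difference -7.18 ± 1.63, adjusted p = 0.00592). Csf2, with no count in TAM-MG, was at least 26.6-fold lower there with 3 counts in all TAM-MG libraries together taken as the floor, or at least 5.43-fold lower without fl/fl bulk tumour 38. For Csf3 no fold is given, since both materials were at or under the floor.

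Per kilobase of all annotated exons of a gene, which allows genes to be compared, Csf1r had the highest mean in all 4 groups, although its range met that of Csf2ra in Δ/Δ bulk tumours. In TAM-MG it had 866 ± 217 CPM per kb in Δ/Δ and 490 ± 37.4 CPM per kb in fl/fl cells, followed by Csf3r with 102 ± 2.72 in Δ/Δ and 59.4 ± 15.1 in fl/fl, Csf2ra with 42.1 ± 20.9 in Δ/Δ and 57.5 ± 13.1 in fl/fl, and Csf2rb with 34.95 ± 2.08 in Δ/Δ and 22.9 ± 13.8 in fl/fl (SD, n = 3 Δ/Δ and 2 fl/fl). The ranges of Csf2ra and Csf2rb overlapped in Δ/Δ cells, and those of Csf3r and Csf2ra in fl/fl cells. Csf1 (14.6 ± 4.17 in Δ/Δ and 10.1 ± 1.13 in fl/fl) and Csf2rb2 (11.6 ± 4.21 in Δ/Δ and 15.4 ± 5.27 in fl/fl) followed, and overlapped in Δ/Δ cells only. In bulk tumours Csf1r had 12.2 ± 7.55 CPM per kb in Δ/Δ and 36.2 ± 8.48 in fl/fl mice, and Csf2ra had 5.41 ± 1.93 in Δ/Δ and 18.6 ± 6.96 in fl/fl mice (SD, n = 3 each). The third place was held by Il34 in Δ/Δ tumours (2.37 ± 0.27), where it overlapped with Csf1 (2.10 ± 1.004), and by Csf1 in fl/fl tumours (8.16 ± 2.78), where its range met that of Il34 (3.59 ± 2.46). Csf3r, second in TAM-MG by this measure, was among the lowest in Δ/Δ bulk tumours (0.176 ± 0.22), above Csf3 only, and next below Csf1 in fl/fl bulk tumours (4.95 ± 2.15), where its range met those of Csf1, Csf2rb2 and Csf2rb.

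The order was another one by the deposited TPM values, which rest on transcript lengths instead and were scaled separately in each experiment. In fl/fl bulk tumours Csf2ra (70.4 ± 32.6 TPM) was above Csf1r (22.1 ± 8.81 TPM) without overlap, and Il34 (21.3 ± 20.6 TPM) had a higher mean than Csf1 (14.3 ± 4.09 TPM). In Δ/Δ bulk tumours Csf2ra (18.7 ± 8.53 TPM) and Csf1r (18.7 ± 13.6 TPM) overlapped. In TAM-MG Csf1r was first by TPM too, and the second mean was that of Csf2ra, with 104 ± 42.0 TPM in Δ/Δ and 138 ± 50.01 TPM in fl/fl cells, ahead of Csf3r with 97.9 ± 5.88 TPM in Δ/Δ and 58.3 ± 26.4 TPM in fl/fl cells.

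**Figure D5:**
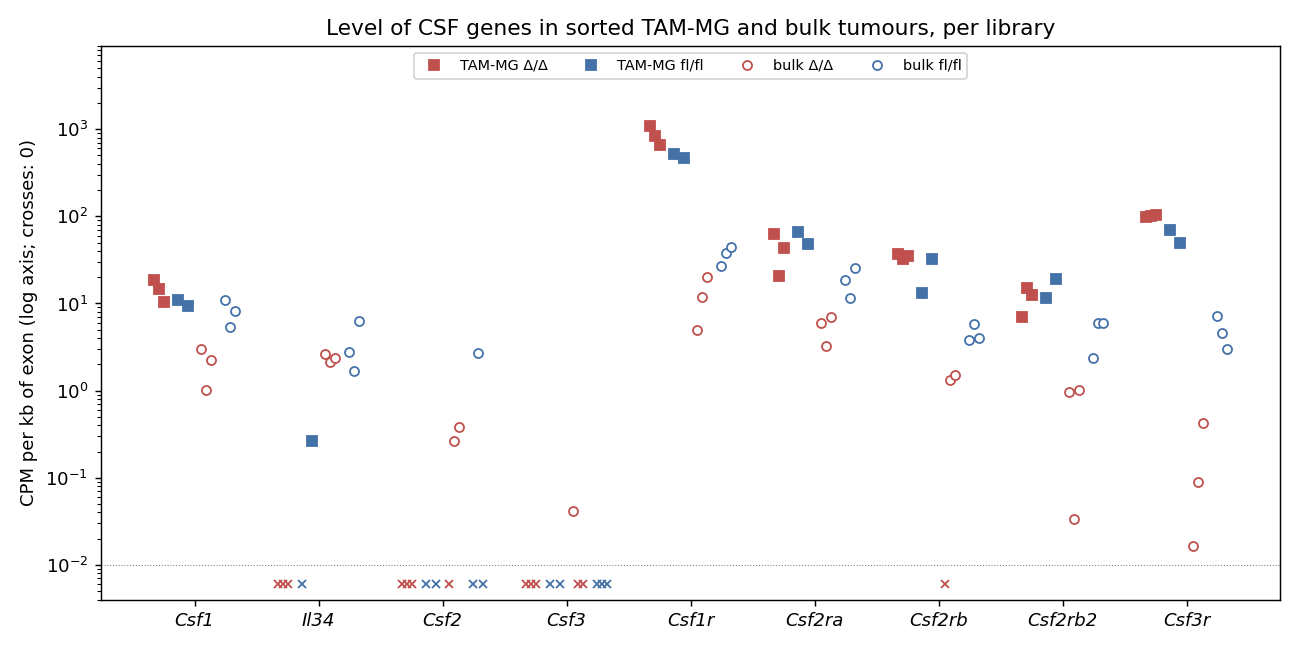
CPM per kb of exon (y axis, log scale) of the 9 CSF genes in TAM-MG (filled squares) and bulk tumours (open circles), Δ/Δ in red and fl/fl in blue, 1 point per library; crosses below the dotted line are libraries with no count. By this measure, and not by TPM in fl/fl bulk tumours, Csf1r has the highest mean in each group, and Il34, Csf2 and Csf3 are at 0 in 4 or 5 of the 5 TAM-MG libraries.

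Over the 11 libraries, the genes whose log2 CPM ran most like that of Csf1r were Slco2b1 (r = 0.994), Olfml3 (r = 0.993) and Vsir (r = 0.993), those most like Csf2ra were Acp6 (r = 0.974), Cd300lf (r = 0.969) and B430306N03Rik (r = 0.967), and those most like Csf1 were Stk10 (r = 0.951), Plau (r = 0.949) and Tor4a (r = 0.948). They are described out of 21342 genes, without a test. Libraries share the material and the genotype, and TAM-MG and bulk libraries form separate groups, so that the coefficients mostly reflect that step. Only these 3 CSF genes had at least 10 counts in every library.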

How the data were processed

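RNA of bulk tumours was extracted from FFPE tissue and that of TAM-MG from sorted cells. Libraries were prepared with SmartSeq2 and Nextera XT, without strand, and sequenced as 75 base paired-end reads. The authors deposited raw counts per gene from STAR, and TPM values from Salmon, both on GRCm38 with Ensembl release 90. Tool versions are not given in the sources used here. The deposited TPM values of bulk tumours cover 12719 genes (6 of the 9 CSF genes) and sum to 617081 to 642370 per library. A row of the TAM-MG TPM table that names no gene was left out.

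Of 50686 identifiers, 50462 (99.6%) were named with GENCODE vM21 of GRCm38. The counts went into edgeR 4.0.16 (R 4.3.3) after filterByExpr (minimum count 10, total 15), with TMM factors and quasi-likelihood F-tests. Calls needed a change of at least 1.5-fold and a p under 0.05 after Benjamini-Hochberg adjustment over all genes tested. Adjusted p-values are from this test unless another is named. TAM-MG against bulk and the interaction were fitted over all 11 libraries, on a common TMM scale. Ratios were compared with exact permutation tests (scipy 1.17.1). Alternatives were the edgeR likelihood ratio test (the study's test), DESeq2 1.42.0, other scalings and filters, limma 3.58.1 on log2(TPM + 1) or log2(TPM + 0.1), an unadjusted p of at most 0.02 (which the study used for TAM-MG), and fits without each library. Ratios without each library were added after the data were seen. The code was tested on simulated data.

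Precision follows from the depth, 14940787 to 29947977 counts per library, and from 2 or 3 mice per group. The CSF genes and the lists were chosen with earlier results of these data known. By rule all 9 CSF genes are named, with the first 4 tested genes of each pathway list in written order, and up to 6 called genes per list and direction, by smallest p. Some genes that this rule takes are not reported here. Of the marker lists only sums and counts are given beside a few genes, which, like the ratios, were chosen after their values were seen.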

Additional observations from a re-analysis of the deposited data

Results flagged for a closer look

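The log2 fold changes of Csf1r and Csf3r between genotypes had opposite signs in TAM-MG and in bulk tumours. Neither gene was called within either experiment by the quasi-likelihood test. Its adjusted p was 0.552 for each gene in TAM-MG, and 0.263 for Csf1r and 0.206 for Csf3r in bulk tumours. For Csf1r the difference of the log2 fold changes, TAM-MG minus bulk tumours, was 2.39 (SE 0.66, adjusted p = 0.225 by the quasi-likelihood test of edgeR and 0.0360 by its likelihood ratio test), with Δ/Δ over fl/fl at 0.76 in TAM-MG and -1.58 in bulk tumours. For Csf3r it was 5.53 (SE 1.09, adjusted p = 0.0871 and 0.000119 by the same tests), with 0.71 in TAM-MG and -4.80 in bulk tumours. In both, all 3 Δ/Δ libraries were above both fl/fl libraries in TAM-MG, and all 3 Δ/Δ tumours were below all 3 fl/fl tumours in bulk. The bulk value of Csf1r rests on the counts, since its TPM values overlapped between genotypes. Markers of resting microglia had the same signs, with all 12 positive in TAM-MG and 10 of 12 negative in bulk tumours.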

How the results depend on the processing

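No paired analysis was possible because Δ/Δ and fl/fl mice share no replicate number. In bulk tumours the quasi-likelihood test called 0 CSF genes, the likelihood ratio test 3, DESeq2 4, and an unadjusted p up to 0.02 (the study's threshold for TAM-MG) also 4, out of 0, 383, 470 and 799 genes. All genes called were 102 with no filter, 62 where every library had 10 counts or more, 1 with each fit of TPM values, and 0 to 8 when a tumour was left out. In TAM-MG no CSF gene was called, and all genes called were 245 (likelihood ratio test), 473 (DESeq2) and 580 (p up to 0.02), against 0. For the interaction, CSF genes called were 2 (likelihood ratio test), 3 (DESeq2), 1 (no filter) and 0 to 1 (a library left out), of 835, 1210, 76 and 1 to 361 genes. The interaction had 48 genes called as reported, 8 with RLE factors, 3 where every library had 10 counts or more and 4 with equal mean log CPM. Between TAM-MG and bulk tumours 7 CSF genes were called of 11283 genes, 3 of 4571 where every library had 10 counts or more (only 3 were tested), 4 of 6403 within fl/fl and 7 of 6789 within Δ/Δ libraries, and 7 each time a library was left out (8314 to 10936 genes). For Il34 the bulk log2 fold change ran between -0.991 and 0.0712 as each tumour was left out (0.0712 without fl/fl 110), and the interaction between -5.65 and 0.63 (0.63 without fl/fl TAM-MG 78). With equal mean log CPM, added after the data were seen, Csf1 in TAM-MG was at -0.0403. No other CSF gene changed sign under the alternatives run. That scaling moved the share of lower genes among those at p under 0.05 to 42.6% against 57.6% with TMM in bulk tumours, to 73.6% against 29.6% in TAM-MG, to 42.4% against 62.9% between TAM-MG and bulk, and to 60.7% against 23.98% in the interaction. The cause was not tested. With 2 fl/fl TAM-MG libraries, leaving out 1 assumes that the other varies like the Δ/Δ libraries.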
